A study of Capra hircus with 8 samples.

Results

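The RNAs described here are U1, U2, U4, U5 and U6, the small nuclear RNAs (snRNAs) at the core of the major spliceosome, taken by their Rfam identifiers RF00003, RF00004, RF00015, RF00020 and RF00026. They are 5 of the 872 Rfam families and 4785 named features in a small RNA count table, and the deposited annotation names each of them as a spliceosomal RNA. All 5 passed the filter on low counts. The table was made from mammary gland cells of the Lanshan dairy goat grown in 3D culture, with 8 libraries in 4 groups of 2. In one group a virus raised the circular RNA circRNA28250 (overexpression), and in another the same RNA was inhibited (knockdown, labelled cKDmix). The others are controls named 3NC and 5NC, names that the labels do not spell out. Overexpression was set against 5NC and knockdown against 3NC because the series text lists them side by side. The labels state neither whether the controls received virus nor whether replicate libraries are separate cultures, and the p-values therefore reflect a spread among libraries that may be technical.

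The spliceosome removes introns from messenger RNA precursors. U1 pairs with the 5′ splice site and U2 with the branch point, after which U4, U5 and U6 join as one particle. U6 enters paired to U4, is released from it and then forms the catalytic centre with U2, while U5 holds the exons in place. U1, U2, U4 and U5 are made by RNA polymerase II and U6 by RNA polymerase III. They are housekeeping RNAs of every nucleated cell, and U6 is a common reference RNA in measurements of miRNA. All are longer than a miRNA, and the sources used here do not say whether the reads counted for them are whole molecules or fragments, nor from which gene copies they came. In such bulk samples fewer cells of a type and less RNA per cell cannot be told apart.

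Spliceosomal snRNAs were a minor part of these libraries. The 5 families had 3011 and 3972 reads in the 3NC libraries, 8666 and 6215 in 5NC, 4424 and 2111 with overexpression, and 7781 and 1631 with knockdown, out of library totals of 6588354 to 32066029 reads. As a share of all reads, in reads per 1000000 of all reads (RPM), this was 372 (exact 95% binomial interval 359 to 386) and 304 (294 to 313) RPM in 3NC, and 551 (539 to 563) and 501 (488 to 513) in 5NC. Overexpression libraries had 355 (345 to 366) and 306 (293 to 319.8) RPM, and knockdown libraries 1181 (1155 to 1208) and 50.9 (48.4 to 53.4). The knockdown group thus held both the highest and the lowest of the 8 libraries, 23.2-fold apart, where the libraries of each other group lay within 1.23-fold. In rising order the remaining libraries were the second 3NC and second overexpression library, the first overexpression and first 3NC library, and the second and first 5NC library. The intervals overlapped within the first and second of these pairs and not within 5NC. Intervals cover the counting error of reads within 1 library only, and no spread between libraries. The reads carry no molecular identifiers that the sources mention and may repeat a molecule, so the intervals may be too narrow for counts of molecules.

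What else the libraries held differed in the same places. Ribosomal RNA took 27.3% of the reads of the first knockdown library, against 1.14% of the second and 1.95% to 5.21% elsewhere. These shares count the Rfam families for bacterial ribosomal RNA. In the first knockdown library the bacterial large and small subunit families had 71145.5 and 49721.2 RPM, against 27787.5 and 82060.9 for the eukaryotic ones. In the second knockdown library predicted piRNAs took 43.9% of the reads and the repeat class 40.4%, while each of the other 7 libraries had at most 0.545% and 16.4%. The miRNA share was 2.69% and 0.382% with knockdown, 5.8% in the second overexpression library and at least 20.3% in the others. The part of these contents in the snRNA levels was not tested.

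**Figure D1:**
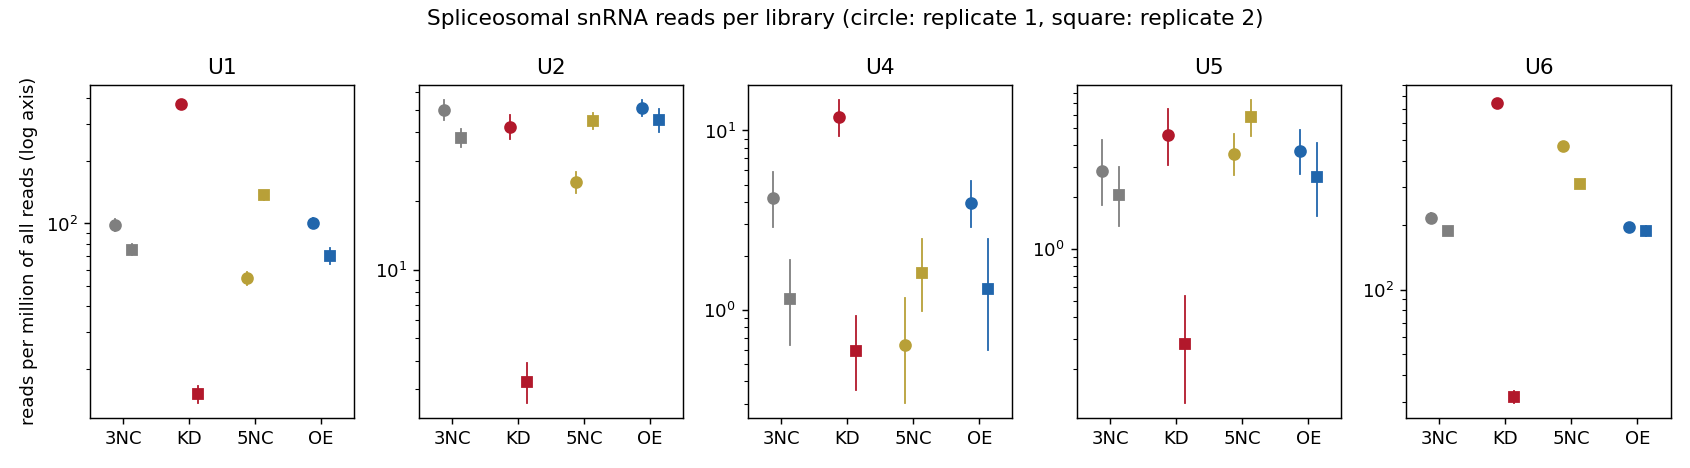
Level in RPM (log axis, a separate range in each panel) of the 5 families in each library, with exact 95% binomial intervals as vertical lines. KD is knockdown and OE overexpression. For each family but U2 and U5 the first knockdown library is the highest of the 8, and in all 5 panels the second is the lowest. For U4 that lowest rank is inside counting error: its interval (0.357 to 0.925 RPM) overlaps that of the first 5NC library (0.305 to 1.17), among others.

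U1, which recognises the 5′ splice site, had 98.6 and 74.9 RPM in 3NC, 54.5 and 136 in 5NC, 100.6 and 70.1 with overexpression, and 376 and 15.1 with knockdown. The overexpression libraries lay between those of 5NC, and the knockdown libraries lay on either side of 3NC. U2, which pairs with the branch point, had 50.1 and 37.7 in 3NC, 24.1 and 44.7 in 5NC, 51.1 and 45.0 with overexpression, and 42.0 and 3.21 with knockdown. Its first knockdown library fell between the 3NC libraries, so U2 did not share the high level that U1 had there. Both overexpression libraries had more U2 than both 5NC libraries, the second by a margin inside the counting intervals (40.1 to 50.3 against 41.1 to 48.6).

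U6, the catalytic snRNA, had 217 and 188 RPM in 3NC, 468 and 312 in 5NC, 196 and 187 with overexpression, and 746 and 31.7 with knockdown. Overexpression and 3NC libraries overlapped in U6, and both 5NC libraries stood above all 4 of them. U4, the partner that U6 sheds on activation, was counted with 34 and 15 reads in 3NC, 10 and 20 in 5NC, 49 and 9 with overexpression, and 78 and 19 with knockdown. These are 4.21 and 1.15, 0.636 and 1.61, 3.93 and 1.31, and 11.8 and 0.593 RPM, so each group apart from 5NC spread by 3.01-fold or more. U5, which aligns the exons, was counted with 23 and 27 reads in 3NC, 56 and 72 in 5NC, 46 and 18 with overexpression, and 30 and 9 with knockdown, or 2.84 and 2.06, 3.56 and 5.8, 3.69 and 2.61, and 4.55 and 0.281 RPM. With at most 78 reads in a library, U4 and U5 are known much less precisely than the other families: the 9 U5 reads of the second knockdown library allow 0.128 to 0.533 RPM.

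The level in the second knockdown library depended on what the reads were divided by. Per 1000000 of all reads the 5 families summed to 50.9 there, over all reads but predicted piRNAs to 90.7, over named features to 107, and over Rfam families alone to 1519. The last value lay between 1409 and 1829 in the 3NC libraries, where the first knockdown library had 3280. Rfam families are also the scale on which 5NC stood highest, at 7292 and 3489, with 2203 and 680 for overexpression. The tests used reads per 1000000 named reads after TMM scaling (CPM), a correction that rests on the bulk of features and gave the second knockdown library a factor of 0.101, against 0.681 to 1.87 in the others. On that scale the sums were 483 and 486 CPM in 3NC, 907 and 769 in 5NC, 341 and 884 with overexpression, and 2735 and 1052 with knockdown. Both knockdown libraries then lay above every other library.

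**Figure D2:**
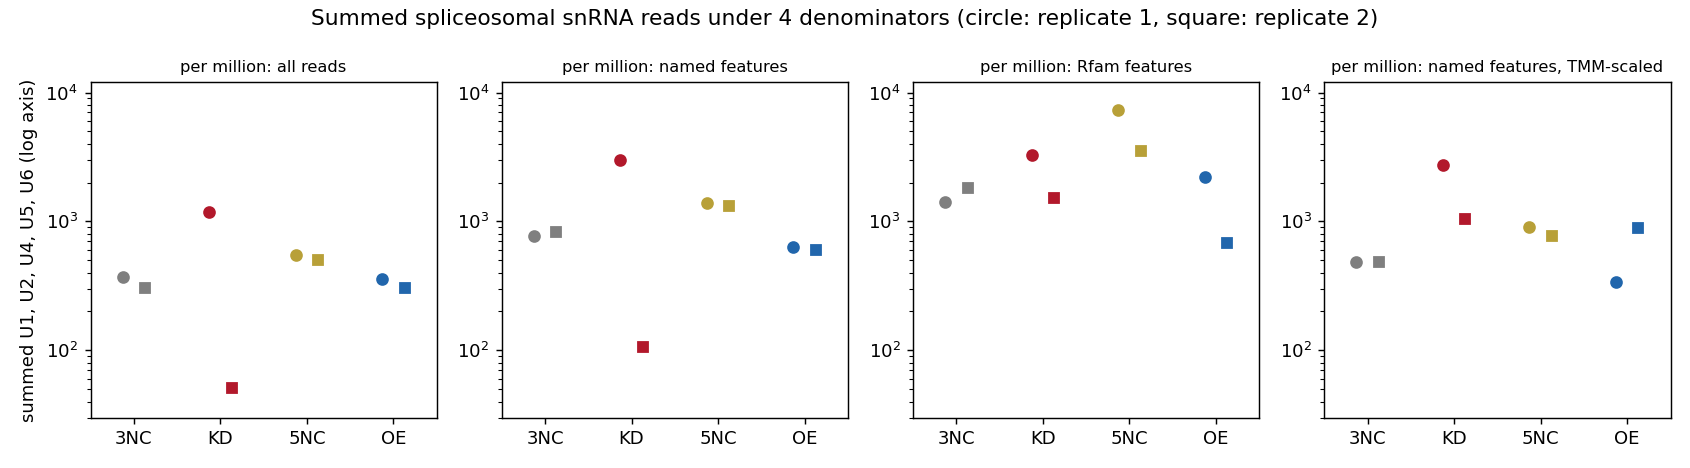
Summed reads of U1, U2, U4, U5 and U6 per library on 4 scales (shared log axis), as reads per 1000000 of all reads, of named features, of Rfam features, and of named features after TMM scaling. KD is knockdown and OE overexpression; the second knockdown library moves from 50.9, the lowest of the 8, to 1052 CPM, the second highest.

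Knockdown against 3NC asked which small RNAs differ when circRNA28250 is inhibited. In CPM, U1 stood at 592 ± 395 (SD, n = 2) with knockdown and 124 ± 5.64 in 3NC, from 872 and 313 against 128 and 119.9, a log2 fold change of 2.26 ± 1.06 SE (edgeR adjusted p = 0.36). U6 had 1191 ± 759 CPM against 291 ± 13.8, from 1728 and 655 against 281 and 301, a log2 fold change of 2.03 ± 1.0 (edgeR adjusted p = 0.39). U4 had 27.4 and 12.3 CPM against 5.46 and 1.84, a log2 fold change of 2.44 ± 1.45 (edgeR adjusted p = 0.46). All 3 had higher values in both knockdown libraries than in both 3NC libraries, with knockdown libraries at least 2.24-fold apart. U5 had 10.5 and 5.81 CPM against 3.69 and 3.30 (log2 fold change 1.23 ± 1.40), and U2 97.4 and 66.4 CPM against 65.0 and 60.3 (0.39 ± 1.02), with edgeR adjusted p of 0.64 and 0.87.

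None of the 5 families passed the edgeR test with knockdown, like 0.0% of all 957 features tested, and 0 had an unadjusted p under 0.05, against 15.0% (144) of all features. DESeq2 also called 0 of the 5, against 16.1% of the features to which it gave an adjusted p, with 1 unadjusted p under 0.05 (U1, 0.038, adjusted 0.14) where 20.7% of all features had one. The groups did not overlap for 5 of 5 families in CPM, all higher with knockdown, where 50.4% of all features did not overlap, 22.6% higher and 27.8% lower. In RPM the same count was 0 of 5, where 44.1% of all features did not overlap, 3.55% higher and 40.5% lower. U1, U4 and U6 kept a positive fold change under each of the 5 scalings (0.86 to 2.26, 1.15 to 2.44 and 0.63 to 2.03). The sign of U2 turned to −0.96, −0.86 and −0.97 with totals of all reads, of named features and of Rfam features, and that of U5 to −0.04 with all reads and −0.14 with Rfam features. Those totals moved the median log2 fold change of all features from 0.00 to −1.65, −1.56 and −1.28, and DESeq2 size factors to −0.22. Relative to that median, each of the 5 families was positive under each of the 5 scalings, U2 by 0.30 to 0.70 and U6 by 1.91 to 2.60. A change of scaling moves the fold changes of all features by similar amounts, and subtracting the median takes most of that out. Agreement over the 5 scalings is therefore largely built in and is no separate support. Without the first knockdown library the fold changes of U1, U4 and U6 were 1.34, 1.75 and 1.17, and without the second 2.81, 2.91 and 2.57.

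Ribosomal and transfer RNA families, which include the Rfam families for bacterial ribosomal RNA, had values in the same direction: 7 of 7 listed had positive log2 fold changes with knockdown (2.34 to 5.15, median 2.95), 7 with an unadjusted p under 0.05 and 0 past the edgeR test. Of all tested, 9 of 10 ribosomal and 1 of 2 transfer RNA families had such an unadjusted p, against 15.0% of all features. The median of the 5 spliceosomal families was 2.03. For each read of the 5 families there were 231 and 224 ribosomal RNA reads in the knockdown libraries, 131 and 104 in 3NC, 35.3 and 75 in 5NC, and 147 and 113 with overexpression. The part of ribosomal RNA in the snRNA values was not tested. Other abundant non-coding RNAs mostly had values in the opposite direction: of 5 listed (signal recognition particle RNA, Y RNA, vault RNA and the RNAs of RNase P and RNase MRP), 4 had negative fold changes (median −1.40) and 0 passed. Y RNA, which is bound by the Ro60 protein, had 11522 and 15472 CPM in 3NC against 3605 and 6632 with knockdown. It had 5005 and 12222 CPM in 5NC, and 5202 and 6354 with overexpression, so both groups had values within the knockdown range. In RPM the 3NC values were 8883 and 9668, and those of knockdown 1556 and 321.

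**Figure D3:**
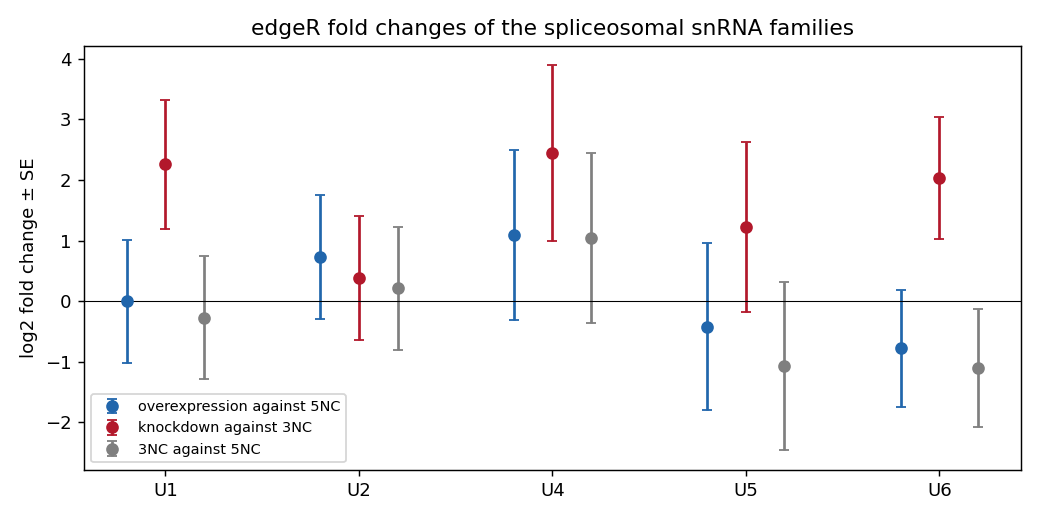
Log2 fold changes of the 5 families from the edgeR fit on all 957 features, as points with 1 SE on either side, for the 3 comparisons. With knockdown U1, U4 and U6 lie between 2.03 and 2.44 and U2 at 0.39, and none of the values passed the test.

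Overexpression against 5NC asked what differs when more circRNA28250 is supplied. U6 had 188 and 541 CPM with overexpression and 770.4 and 479.5 CPM in 5NC, a log2 fold change of −0.78 ± 0.97 SE (edgeR adjusted p = 0.86). The groups overlapped in CPM, and did not in RPM, where U6 was lower with overexpression. U2 had 49.0 and 129.8 CPM against 39.7 and 68.7 (log2 fold change 0.72 ± 1.02), and U4 3.78 and 3.77 CPM against 1.05 and 2.47 (1.09 ± 1.40). U1 differed by −0.0018 ± 1.0 and U5 by −0.42 ± 1.38 on the log2 scale, with 96.6 and 202 CPM of U1 and 3.55 and 7.54 CPM of U5 against 89.7 and 209.5, and 5.86 and 8.91.

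By edgeR 0 of the 5 families passed with overexpression, like 0.0% of all features, and 0 had an unadjusted p under 0.05, against 8.46%. DESeq2 called 0 of 5, against 7.68% of the features with an adjusted p, and gave 0 an unadjusted p under 0.05, against 13%. Groups did not overlap for 1 of 5 families in CPM (U4, higher) and 2 of 5 in RPM (U2 higher, U6 lower), where 32.6% and 29.8% of all features did not overlap. Split by direction, these were 10.4% higher and 22.2% lower in CPM, and 10.3% higher and 19.4% lower in RPM. The second overexpression library was the higher of its group in CPM for U1, U2, U5 and U6. Without it the log2 fold change of U6 was −1.73 and that of U2 −0.14. Set against 3NC in place of 5NC, U6 was at 0.32 and U5 at 0.65, so the direction of both depended on the control.

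The 2 control groups were also set against each other. From 5NC to 3NC the log2 fold change was −1.10 ± 0.98 SE for U6, −1.07 ± 1.39 for U5, 1.04 ± 1.40 for U4, −0.27 ± 1.0 for U1 and 0.21 ± 1.02 for U2, with edgeR adjusted p from 0.84 to 1.0. The groups did not overlap for U5 and U6, 2 of 5 families, both lower in 3NC, where 41.2% of all features did not overlap in CPM (21.0% higher, 20.2% lower) and 41.7% in RPM (22.9% higher, 18.8% lower). None of the 5 passed (0.0% of all features), and 0 had an unadjusted p under 0.05 (7.42%). DESeq2 called 0 of the 4 families with an adjusted p, against 6.49%, and gave 0 an unadjusted p under 0.05, against 11.1%. This comparison shares its 5NC libraries with overexpression and its 3NC libraries with knockdown. Tested as a difference of the knockdown and overexpression effects, U6 came to 2.81 ± 1.39 on the log2 scale and U1 to 2.26 ± 1.45, with edgeR adjusted p of 0.43 and 0.52. For U4, U5 and U2 it was 1.35 ± 1.98, 1.65 ± 1.96 and −0.34 ± 1.44. The 5 families had 0 calls here by edgeR, as had 0.0% of all features, and 0 with an unadjusted p under 0.05 (12%), and DESeq2 called 0 of the 4 with an adjusted p (10.9%) and gave 0 an unadjusted p under 0.05 (17.1%).

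Shares within the snRNA reads do not depend on library scaling. They are shares of reads, not corrected for the lengths of the RNAs, so they do not rank the families as molecules. U6 made up 58.2% (exact 95% interval 56.4% to 59.96%) and 61.9% (60.3% to 63.4%) of the reads of the 5 families in 3NC, 85.0% (84.2% to 85.7%) and 62.3% (61.1% to 63.6%) in 5NC, 55.2% (53.7% to 56.6%) and 61.2% (59.0% to 63.2%) with overexpression, and 63.2% (62.1% to 64.3%) and 62.2% (59.8% to 64.6%) with knockdown. The first 5NC library stood apart: in the other 7 the U6 share ran from 55.2% to 63.2%. That library correlated with the others at a Spearman coefficient of 0.50 to 0.63 over the 957 features, which are not independent replicates. Such coefficients were not particular to it, since the first knockdown library correlated with the libraries of the other groups at 0.51 to 0.66. U3, a nucleolar RNA of ribosome assembly, was at 954 RPM in the first 5NC library against 19.6 to 316 in the others.

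U1 took 26.5% and 24.7% of the snRNA reads in 3NC, 9.89% and 27.2% in 5NC, 28.3% and 22.9% with overexpression, and 31.9% and 29.7% with knockdown. Its share was highest in the 2 knockdown libraries and lowest in the first 5NC library. The counting interval of the second knockdown library (27.5% to 32.0%) overlapped that of the first overexpression library (27.0% to 29.7%). U2 took 13.5% and 12.4% in 3NC, 4.37% and 8.93% in 5NC, 14.4% and 14.7% with overexpression, and 3.56% (3.16% to 4.0%) and 6.32% (5.18% to 7.61%) with knockdown. Both knockdown libraries were below 3NC and overexpression, and the first 5NC library lay between them. U4 ran from 0.115% to 1.16% and U5 from 0.386% to 1.16% of the snRNA reads.

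**Figure D4:**
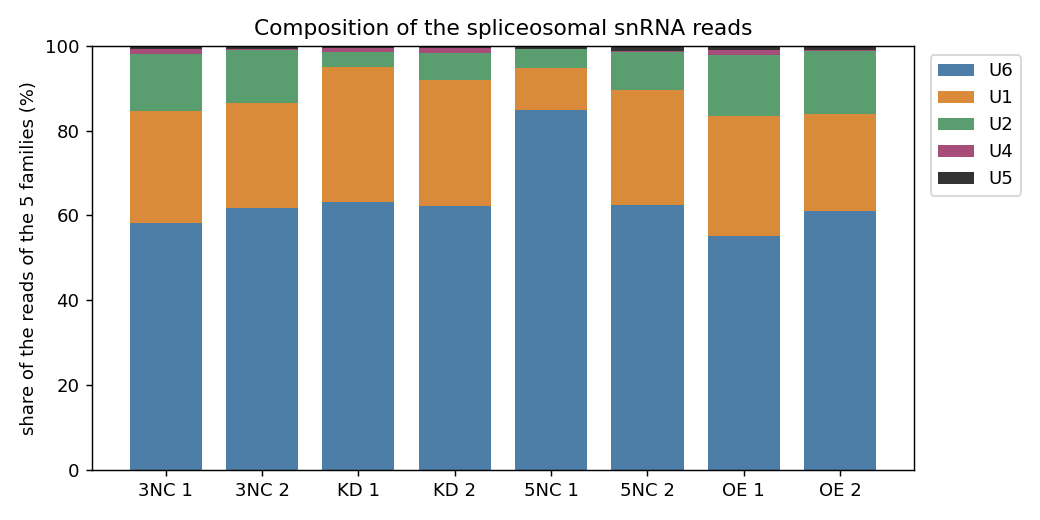
Share of each family in the reads of the 5 families, in percent, per library (KD, knockdown; OE, overexpression; numbers are the replicates of the labels). The U2 band is 3.56% and 6.32% with knockdown against 13.5% and 12.4% in 3NC, and the U6 band reaches 85.0% in the first 5NC library.

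Of the ratios between families, 4 had both knockdown values outside those of all 6 other libraries, and U1 over U2 was one of them. There were 1.97 (exact 95% interval 1.74 to 2.22) and 1.99 (1.78 to 2.22) U1 reads per U2 read in 3NC, 2.26 (2.0 to 2.56) and 3.05 (2.77 to 3.36) in 5NC, 1.97 (1.79 to 2.17) and 1.56 (1.35 to 1.80) with overexpression, and 8.95 (7.90 to 10.2) and 4.71 (3.80 to 5.88) with knockdown. Both knockdown intervals lay above those of all 6 other libraries, and did not overlap each other. On the log2 scale the mean knockdown ratio was 1.71 above 3NC, and the mean overexpression ratio 0.58 below 5NC (−0.58). In U2 over U4 the difference was larger, at −2.17: there were 11.9 and 32.9 U2 reads per U4 read in 3NC, 37.9 and 27.8 in 5NC, 13 and 34.4 with overexpression, and 3.55 (2.75 to 4.63) and 5.42 (3.30 to 9.37) with knockdown, the latter interval reaching into that of the first 3NC library (8.39 to 17.4). These ratios were picked with their values in view, so no test is given, and with 2 libraries in each group the smallest exact permutation p is 0.33. Of the 10 ratios between the 5 families, 8 did not overlap between knockdown and 3NC, where 58.8% of the ratios between any 2 Rfam families with reads in each library did not. Against all 6 other libraries together it was 4 of 10 (U1 over U2, U1 over U5, U4 over U5 and U2 over U4), where the share was 28.8%. The same counts were 7 of 10 for overexpression against 5NC (43.3% over all Rfam ratios) and 7 of 10 for 3NC against 5NC (46.9%). The 10 ratios share their families and are not independent.

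U4 and U6 enter the spliceosome as a pair. There were 0.0194 and 0.00611 U4 reads per U6 read in 3NC, 0.00136 and 0.00516 in 5NC, 0.0201 and 0.00697 with overexpression, and 0.0159 and 0.0187 with knockdown. Both 5NC libraries lay below the other 6, the second by less than its counting interval, while 3NC, overexpression and knockdown overlapped. U1 over U6 was steadier, from 0.374 to 0.514 in 7 libraries and 0.116 in the first 5NC library. The ratio with the least spread was U2 over U5, with an SD of 0.56 on the log2 scale over 8 libraries, against 1.39 for U4 over U5.

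**Figure D5:**
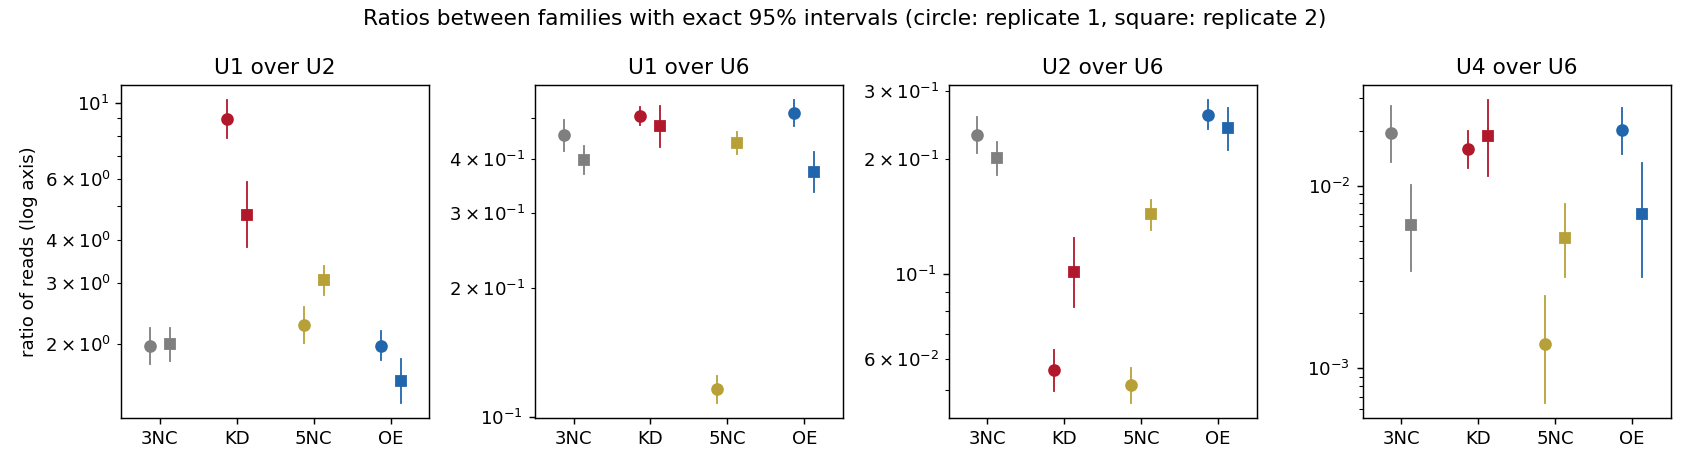
Ratios of reads between families per library (log axes, a separate range in each panel), with exact 95% intervals as vertical lines; KD is knockdown and OE overexpression. U1 over U2 is 8.95 and 4.71 with knockdown against 1.56 to 3.05 elsewhere, and in U1 over U6 the first 5NC library stands alone at 0.116.

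The minor spliceosome, which removes a rare class of introns, uses U11, U12, U4atac and U6atac in place of U1, U2, U4 and U6. All 4 were in the table, with 48 and 52 reads in sum in 3NC, 24 and 38 in 5NC, 18 and 14 with overexpression, and 125 and 7 with knockdown. Their share of the reads of both sets was 1.57% (exact 95% interval 1.16% to 2.08%) and 1.29% (0.97% to 1.69%) in 3NC and 1.58% (1.32% to 1.88%) and 0.43% (0.17% to 0.88%) with knockdown. In 5NC it was 0.28% and 0.61%, and with overexpression 0.41% and 0.66%. U6atac accounted for 107 of the 125 reads of the first knockdown library. Only U4atac and U6atac passed the filter on low counts, with log2 fold changes of −3.65 ± 3.28 and 2.80 ± 1.72 with knockdown, and 4.95 ± 3.09 and −0.75 ± 1.65 with overexpression. None of these passed, and neither U4atac value is a measure of size, since U4atac had 0 reads in both 5NC libraries and 0 and 1 with knockdown. Together with U7, which processes histone messenger RNA, and SmY, a family known from nematodes, the deposited annotation listed 11 snRNA families, of whose reads the 5 described here made up 98.4% to 99.7%.

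Small Cajal body RNAs guide the chemical modification of snRNAs. Of 15 listed, 13 were in the table and 9 passed the filter, with 3 positive and 6 negative fold changes with knockdown, 5 positive and 4 negative with overexpression, and 0 past the edgeR test in either. No median is given, since SCARNA20 and SCARNA21 had 0 reads in both knockdown libraries and SCARNA13 in both overexpression libraries. The median over all features was 0.00 with knockdown and −0.19 with overexpression. SCARNA3 had 4.70 and 3.52 RPM in 3NC, 9.15 and 18.2 in 5NC, 1.36 and 4.35 with overexpression, and 0.152 and 0.0936 with knockdown. Its knockdown values rest on 1 and 3 reads, too few to measure the size of a difference. SCARNA8 had 5.07 and 8.10 in 3NC against 3.95 with knockdown and 0 reads in the second knockdown library, and SCARNA18 4.95 and 5.66 against 15.9 and 0.437. The fold changes of the 3 nucleolar RNAs listed were −0.22 for U3, 2.08 for U8 and 3.76 for U13 with knockdown, and all 3 were negative with overexpression (−3.25 to −1.14), again with 0 past the test.

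7SK, a nuclear RNA that holds the elongation factor P-TEFb inactive and is made by RNA polymerase III as U6 is, had 57.5 and 61.1 RPM in 3NC, 132 and 154 in 5NC, 63.6 and 99.3 with overexpression, and 175 and 4.96 with knockdown. As for U6, both 5NC libraries were above 3NC and overexpression, and the knockdown libraries were the highest and the lowest. Its log2 fold change was 1.56 ± 1.15 with knockdown and −0.39 ± 1.12 with overexpression, with edgeR adjusted p of 0.53 and 1.0.

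Profiles were compared by the root mean square difference of centred log2(CPM + 1) values over the 8 libraries, which is small where 2 RNAs move alike. Among 324 other Rfam families tested, those nearest to the sum of the 5 were the small nucleolar RNAs SNORA43 (0.35), SNORA54 (0.44) and SNORD58 (0.45), where the median family was at 1.21. The sum mostly followed U6, its largest part: it lay 0.17 from U6 and 0.50 to 0.88 from the other members. U6 was nearest to SNORA43 (0.40), SNORA54 (0.45) and SNORA18 (0.46), and U1 to U6-53/MBII-28 (0.35), MBII-202 (0.40) and SNORD21 (0.41), all small nucleolar RNAs. U4 was nearest to mir-611 (0.40), SNORD38 (0.48) and the TAR family (0.49), and U5 to the mir-2 precursor family (0.23), SNORD61 (0.31) and SNORA54 (0.41). Nearest to U2 were the Rfam families for a retroviral primer binding site (0.34) and for an alphaproteobacterial transfer-messenger RNA (0.44), then SNORA2/SNORA34 (0.45), all names as the deposited annotation gives them. Between the members the distances ran from 0.47 for U2 and U5 and 0.56 for U1 and U4 to 1.05 for U4 and U5. U1 and U2 were 0.79 apart. Families of few CPM, such as U4, U5, SNORA43, SNORA54 and the first neighbour of U2, have profiles flattened by the added 1 CPM.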

How the data were processed

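Small RNA was sequenced in 8 libraries, 2 in each of 4 groups. The deposited table gives raw read counts and TPM values per feature, per the file headers. The TPM values the authors deposited equalled count over column total within 0.0141% for features of at least 1000 reads, with no length term; they served for nothing else. The aligner, the counting rule and the build were not given in the sources used here, nor whether snRNA reads also enter the unnamed classes (exon, intron, intergenic, repeat). These 4 classes, 44.3% to 63.1% of reads, count in shares of all reads and were kept out of the tests, and 1 row with shifted fields was left out.

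Mature and hairpin counts of a miRNA name were summed. The main test was edgeR 4.0.16 in R 4.3.3 (TMM, filterByExpr at a minimum count of 10, robust quasi-likelihood test, two-sided, Benjamini-Hochberg over 957 features, threshold 0.05), fitted to all 8 libraries, which leaves 4 residual degrees of freedom, with a common biological coefficient of variation of 1.20. DESeq2 1.42.0 was an alternative. The SE is the absolute log2 fold change over the square root of F, and is approximate. The fit was tested on simulated data with planted changes larger than any knockdown change of the 5 families in the main fit. That test therefore does not show whether changes of their size would be found. Intervals are exact (Clopper-Pearson). Replicate libraries differed by far more than sampling noise (chi-square over degrees of freedom 535 to 8990). The named genes were the 5 families, up to 3 per related list by level, and the 3 nearest profiles of each family. Families and lists were chosen with earlier results of these data known. Alternatives were other scalings, feature sets, filters and controls, a replicate block, and libraries left out.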

Additional observations from a re-analysis of the deposited data

How the results depend on the processing

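None of the 20 fold changes of the 5 families (4 comparisons) passed a threshold of 0.05 under any alternative run, and of their recomputed values 322 kept the sign and 28 had the opposite one. For overexpression against 5NC these were U1 with DESeq2 size factors (0.39), no filter (0.13), the replicate block (0.0032), the DESeq2 test (0.26) and 3NC as control (0.27). With 1 library left out U1 ran from −0.63 to 0.74, turning without the second 5NC (0.74) or first overexpression library (0.44). Without the first 5NC and second overexpression library together U1 kept its sign (−1.12), as did U5 (−1.32). With 1 library left out U2 ran from −0.14 to 1.26 and U5 from −1.05 to 0.030. Opposite values of U2 came with Rfam totals (−0.60), without the second overexpression library (−0.14) and without that pair (−0.49). U5 was opposite with 3NC as control (0.65) and without the first overexpression library (0.030), and U6 with 3NC as control (0.32). For knockdown the opposite values were U2 with totals of named features (−0.86), all reads (−0.96) and Rfam features (−0.97), Rfam features only (−0.61) and no filter (−0.15). U5 turned there with totals of all reads (−0.038) and Rfam features (−0.14). For 3NC against 5NC, U1 ran from −0.76 to 0.47 with 1 library left out, and U2 from −0.13 to 0.66, with −0.60 for Rfam totals and −0.13 without that pair. For the difference of effects, U2 ran from −0.87 to 0.53, with 0.87 without that pair, and U4 was at −0.012 with totals of all reads. The cause of these turns was not tested.

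Over all features edgeR as reported called 0 in each comparison. In the order overexpression, knockdown, 3NC against 5NC and difference of effects, DESeq2 called 45, 103, 32 and 52. Without a filter 4, 82, 1 and 8 of 4785 were called. Totals of named features gave 1, 11, 0 and 5, totals of all reads 1, 13, 0 and 7, and Rfam totals 2, 2, 0 and 3. Rfam features alone gave 0, 2, 0 and 2 of 344. With 1 library left out the range was 0 to 23, 0 to 0, 0 to 30 and 0 to 31, where 23, 30 and 31 came without the second 5NC library. The labels do not say that replicate numbers pair the libraries. Deviations of same-numbered libraries from their group means correlated at −0.01 for overexpression and 5NC and 0.17 for knockdown and 3NC, the groups compared, at 0.19 for overexpression and knockdown, 0.11 for 3NC and overexpression, and 0.04 or less for the other pairs of groups. With the replicate block 1, 9, 3 and 0 features were called, and the log2 fold change of U1 was 0.0032 with overexpression. U4 and U5 have the fewest reads and the widest counting intervals for their size. With all listed small nuclear RNAs, 7SK included, as denominator, shares of U6 were 46.0% to 68.4%, of U1 7.96% to 27.4% and of U2 3.06% to 12.1%, outside the counting intervals of those reported in each library but for U2 in the second knockdown library. With the snRNA families of the table alone, chosen after seeing the data, all shares stayed inside them.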
